A study of Mus musculus with 8 samples.

Results

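The genes described here are 10 immediate early and ERK feedback genes of mouse pancreatic cancer cells: the AP-1 genes Fos, Fosl1, Jun and Junb, the zinc finger gene Egr1, the phosphatase genes Dusp1, Dusp4 and Dusp6, and the Sprouty genes Spry2 and Spry4. They were chosen by name, with earlier results of these data known. All 10 were found by Ensembl identifier among the 42687 genes of the count table and were among the 15197 genes tested. The cells are a clonal line of low immunogenicity (1 clone) from mice whose alleles include Rosa26YFP/YFP, Pdx1-Cre and Trp53LSL-R172H/+, which all groups share, although the sample labels give the genotype as WT. The cells were treated with DNAse+ATEVs (ATEVs pretreated with Baseline-ZERO DNase, 15 µg/mL), ATEVs (15 µg/mL), NTEVs (30 µg/mL) or PBS. The labels set these amounts of ATEVs and NTEVs, as their wording is read here, equal to 5 µg/mL of EV-DNA. By the labels, NTEVs are extracellular vesicles (EVs) from T cells without activation; ATEVs are read here, by that contrast, as EVs from activated T cells. Cells were collected and plated anew on the day after exposure, in 8 repeats of the procedure. There were 4 groups of 2 libraries, called library 1 and library 2 after their labels. Whether a group's libraries are from different cultures is not said, and p-values therefore reflect the spread between libraries alone, which may be technical. The labels also do not give the time from the last reseeding or medium change to lysis.

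Immediate early genes are transcribed within minutes of a growth factor, serum or stress signal, without new protein synthesis, and their short-lived mRNAs then decline. Many of them are switched on by the kinase ERK, the last step of the Ras, Raf, MEK and ERK cascade, through serum response factor and its ETS-family partners, and by CREB at cAMP response elements. Some ERK targets act back on the pathway: DUSP phosphatases remove the activating phosphates from MAP kinases, and Sprouty proteins restrain signalling between receptors and Raf. This cascade is commonly active in pancreatic cancer cells.

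Promoters are shown for Fos, Junb and Dusp1 because they are the matched genes that hold the core of a cAMP response element near the start site. The RefSeq promoter table (GRCm38.p6) matched 6 of the 10 genes: Fos, Jun, Junb, Dusp1, Dusp6 and Spry2. Each stretch is the 250 bases upstream of the RefSeq start, written 5′ to 3′ on the gene's strand, with every TGACG on either strand in capitals.
Fos (chr12:85473640-85473889, plus strand): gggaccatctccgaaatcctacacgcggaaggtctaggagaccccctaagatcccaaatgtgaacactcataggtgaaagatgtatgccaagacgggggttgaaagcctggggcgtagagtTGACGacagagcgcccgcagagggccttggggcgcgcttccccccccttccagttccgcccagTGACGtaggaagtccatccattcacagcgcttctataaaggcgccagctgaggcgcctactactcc
Junb (chr8:84978749-84978998, minus strand): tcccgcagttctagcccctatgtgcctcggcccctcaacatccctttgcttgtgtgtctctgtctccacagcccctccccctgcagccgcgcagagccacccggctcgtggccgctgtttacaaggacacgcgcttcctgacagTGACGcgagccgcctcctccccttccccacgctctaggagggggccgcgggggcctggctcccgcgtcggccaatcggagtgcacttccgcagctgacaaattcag
Dusp1 (chr17:26508473-26508722, minus strand): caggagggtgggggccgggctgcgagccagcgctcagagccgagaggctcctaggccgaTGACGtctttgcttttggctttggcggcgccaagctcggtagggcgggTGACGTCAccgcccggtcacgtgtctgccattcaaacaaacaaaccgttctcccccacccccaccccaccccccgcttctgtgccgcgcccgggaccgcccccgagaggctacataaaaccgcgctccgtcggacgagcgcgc
TGACG was found in 17.8% of the 32851 promoter stretches of this length in the table. Fos held it at 129 to 125 and at 66 to 62 bases before the start, and Junb at 106 to 102. Dusp1 held it at 191 to 187 and within a full palindrome, TGACGTCA, at 143 to 136, where the matches on both strands overlap. The palindrome was found in 1.55% of stretches. The 3 other matched genes, Jun, Dusp6 and Spry2, held no TGACG in this window. None of the 6 held TGANTCA (6.75% of stretches), CCGGAA (12.0%), TTCNNNGAA (7.02%) or a CArG box (1.47%), searched on both strands. A match describes letters in this window and is not a measured site.

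Total counts per library ran from 34385326 to 52451398, and library 1 was the deeper of the pair in all 4 groups. All 11 markers of pancreatic ductal and other epithelial cells had counts in every library, with Epcam, Sox9, Cldn4 and Cldn7 low (at most 29.9 CPM, counts scaled to library size). Their summed level was 8979 and 9562 CPM with DNAse+ATEVs, 8844 and 10479.9 CPM with ATEVs, 10563 and 11825 CPM with NTEVs, and 11182 and 10289.6 CPM with PBS. Of 16 T cell markers, Cd2, Cd5 and Cd8a had no count in any library and Cd3d, Cd3e and Cd3g at most 2. Lck (80 to 276 counts) and Trac (165 to 332 counts) were found in every library, PBS included, at 1.99 to 6.35 CPM and 4.11 to 7.17 CPM, and made up most of the list's sum. The summed T cell list was 11.7 and 8.86 CPM with DNAse+ATEVs, 11.2 and 8.58 CPM with ATEVs, 8.64 and 6.42 CPM with NTEVs, and 11.03 and 12.01 CPM with PBS. The part of other cell types in the results was not tested.

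Transcripts of Fos, Jun, Junb, Egr1 and Dusp1 were several-fold more abundant in EV-treated than in PBS-treated cells whichever EV was given, Dusp6, Spry2 and Spry4 were modestly more abundant, and Fosl1 and Dusp4 overlapped with PBS. The largest ratio of means was that of Egr1, at 605 ± 481 CPM with DNAse+ATEVs, 570.1 ± 452 CPM with ATEVs and 573 ± 404 CPM with NTEVs, against 48.4 ± 44.9 CPM with PBS (mean ± SD, n = 2 each). Libraries of a group differed widely for several of these genes, the size of the differences from PBS depended on single libraries, and 0 of the 10 passed edgeR's quasi-likelihood test after Benjamini-Hochberg adjustment over all genes in any comparison. Levels are CPM on library sizes scaled by TMM (trimmed mean of M-values), and in bulk RNA a change in the share of cells that make a transcript and a change per cell cannot be told apart.

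**Figure D1:**
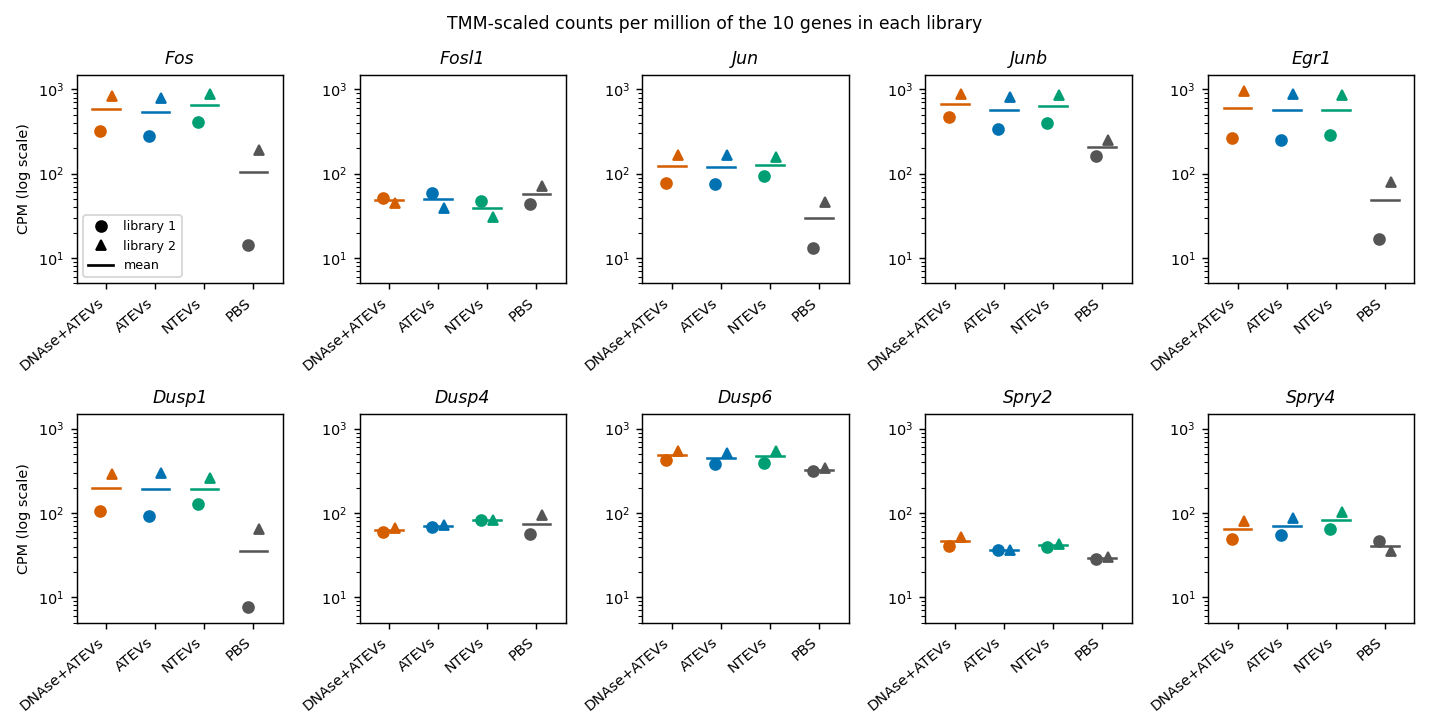
TMM-scaled CPM (log axis) of each gene in each of the 8 libraries, by group; circles are library 1, triangles library 2 and lines group means. Egr1 lies between 250.5 and 945 CPM in the 6 EV-treated libraries and at 16.6 and 80.2 CPM in the PBS libraries, and the triangle stands above the circle in every group for Fos, Jun, Junb, Egr1 and Dusp1.

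Among the AP-1 genes, which encode subunits of dimeric transcription factors, Fos had the widest range. It was at 319 and 843 CPM with DNAse+ATEVs, 282 and 799 CPM with ATEVs and 414 and 888 CPM with NTEVs, against 14.1 and 193 CPM with PBS (library 1 and library 2 of each group). Every EV-treated library was above both PBS libraries, and library 2 was above library 1 in each group, most of all with PBS, where the ratio was 13.7. Relative to PBS, the log2 fold change of Fos was 2.49 ± 1.14 (SE) with DNAse+ATEVs, 2.39 ± 1.13 with ATEVs and 2.65 ± 1.14 with NTEVs, with edgeR adjusted p of 0.227, 0.278 and 0.265. These values reached 5.35, 5.26 and 5.52 without PBS library 2. Their lowest with 1 library left out were 1.58 and 1.75 for DNAse+ATEVs and NTEVs, without PBS library 1, and 1.45 for ATEVs, without ATEVs library 2.

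Jun, the main dimer partner of Fos, was at 76.5 and 169 CPM with DNAse+ATEVs, 76.3 and 165 CPM with ATEVs and 93.4 and 157 CPM with NTEVs, against 13.0 and 45.8 CPM with PBS. The PBS libraries were again the lowest of the 8, and library 2 was the higher of each group. Against PBS the log2 fold change of Jun was 2.06 ± 0.69, 2.04 ± 0.68 and 2.095 ± 0.69 in the same order, with edgeR adjusted p of 0.132, 0.144 and 0.180. With 1 library left out it ran from 1.3996 to 3.22, 1.38 to 3.21 and 1.44 to 3.26, highest without PBS library 2 and lowest without library 2 of the EV group (for NTEVs, without PBS library 1). Junb, a relative of Jun, was at 464 and 873 CPM with DNAse+ATEVs, 335 and 814 CPM with ATEVs and 405 and 858 CPM with NTEVs, against 164 and 253 CPM with PBS. No EV-treated library reached down to the PBS libraries. The log2 fold change of Junb was 1.68 ± 0.55, 1.46 ± 0.55 and 1.60 ± 0.55, with edgeR adjusted p of 0.128, 0.178 and 0.196. It was 1.17, 0.69 and 0.95 without library 2 of the EV group and 2.103, 2.01 and 2.08 without library 1 of that group.

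Fosl1, which encodes the AP-1 subunit FRA-1, a later and more lasting target of ERK than Fos, overlapped with PBS. It was at 51.9 and 45.1 CPM with DNAse+ATEVs, 59.8 and 39.0 CPM with ATEVs and 47.8 and 30.7 CPM with NTEVs, against 44.1 and 72 CPM with PBS. Library 2 was the lower with each EV and the higher with PBS. For Fosl1 the log2 fold change was -0.26 ± 0.32, -0.23 ± 0.32 and -0.56 ± 0.32, with edgeR adjusted p of 0.633, 0.711 and 0.357 and intervals of -1.02 to 0.50, -0.99 to 0.53 and -1.32 to 0.20.

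Egr1, a zinc finger transcription factor and a standard readout of ERK activity, was at 265 and 945 CPM with DNAse+ATEVs, 250.5 and 889.8 CPM with ATEVs and 287 and 858 CPM with NTEVs, against 16.6 and 80.2 CPM with PBS. The lowest EV-treated library was above the highest PBS library. Among libraries numbered 1 the ratios to PBS were 15.9, 15.1 and 17.3, and among libraries numbered 2 they were 11.8, 11.1 and 10.7. Relative to PBS, its log2 fold change was 3.65 ± 1.08, 3.56 ± 1.07 and 3.57 ± 1.07, with edgeR adjusted p of 0.107, 0.113 and 0.160. It was 2.47, 2.38 and 2.57 without library 2 of the EV group and 5.17, 5.097 and 5.103 without PBS library 2, the lowest and highest with 1 library left out.

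The 3 phosphatase genes had different profiles. Dusp1, itself an immediate early gene whose nuclear product acts on p38 and JNK as well as ERK, was at 106 and 292 CPM with DNAse+ATEVs, 91.4 and 296 CPM with ATEVs and 127 and 260.2 CPM with NTEVs, against 7.69 and 63.7 CPM with PBS. Both PBS libraries were below all others. Its log2 fold change was 2.49 ± 1.03, 2.45 ± 1.03 and 2.44 ± 1.03, with edgeR adjusted p of 0.196, 0.225 and 0.259. Without PBS library 2 it was 4.68, 4.65 and 4.65, and its lowest was 1.59 and 1.36 without library 2 of the DNAse+ATEVs and ATEVs groups and 1.59 for NTEVs without PBS library 1. Dusp6, whose cytoplasmic product is selective for ERK, was at 429 and 541 CPM with DNAse+ATEVs, 379.9 and 516 CPM with ATEVs and 388 and 549.6 CPM with NTEVs, against 314 and 341 CPM with PBS. It was high in every library, and the groups did not overlap with PBS. Its log2 fold change was 0.57 ± 0.23, 0.45 ± 0.23 and 0.52 ± 0.23, with edgeR adjusted p of 0.184, 0.304 and 0.270, and was 0.401, 0.22 and 0.24 without library 2 of the EV group. Dusp4, a nuclear phosphatase, was at 60.1 and 65.8 CPM with DNAse+ATEVs, 67.5 and 72.3 CPM with ATEVs and 82.2 and 82.5 CPM with NTEVs, against 56.1 and 93.6 CPM with PBS. All 6 EV-treated libraries lay between the PBS libraries. The log2 fold change was -0.25 ± 0.23, -0.10 ± 0.23 and 0.14 ± 0.23, with edgeR adjusted p of 0.509, 0.833 and 0.729 and intervals of -0.78 to 0.28, -0.63 to 0.43 and -0.39 to 0.67.

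The Sprouty genes encode inhibitors of receptor tyrosine kinase signalling. Spry2 was at 40.3 and 52.4 CPM with DNAse+ATEVs, 36.1 and 35.9 CPM with ATEVs and 40.01 and 42.7 CPM with NTEVs, against 28.8 and 29.997 CPM with PBS. The libraries were close together with ATEVs, NTEVs and PBS and further apart, 1.30-fold, with DNAse+ATEVs, and PBS was lowest. The log2 fold change of Spry2 was 0.66 ± 0.16, 0.29 ± 0.16 and 0.49 ± 0.16, with edgeR adjusted p of 0.0712, 0.327 and 0.175, of which the first was the lowest of any of the 10 genes. With 1 library left out it ran from 0.47 to 0.87, 0.26 to 0.33 and 0.44 to 0.58. Spry4 was at 49.1 and 79.5 CPM with DNAse+ATEVs, 54.9 and 86.4 CPM with ATEVs and 65.4 and 102 CPM with NTEVs, against 46.4 and 35.5 CPM with PBS. The groups did not overlap, but the lower DNAse+ATEVs library was only 1.06-fold above the same-numbered PBS library. Its log2 fold change was 0.65 ± 0.34, 0.78 ± 0.34 and 1.03 ± 0.34, with edgeR adjusted p of 0.278, 0.234 and 0.184, and was 0.27, 0.42 and 0.67 without library 2 of the EV group.

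**Figure D2:**
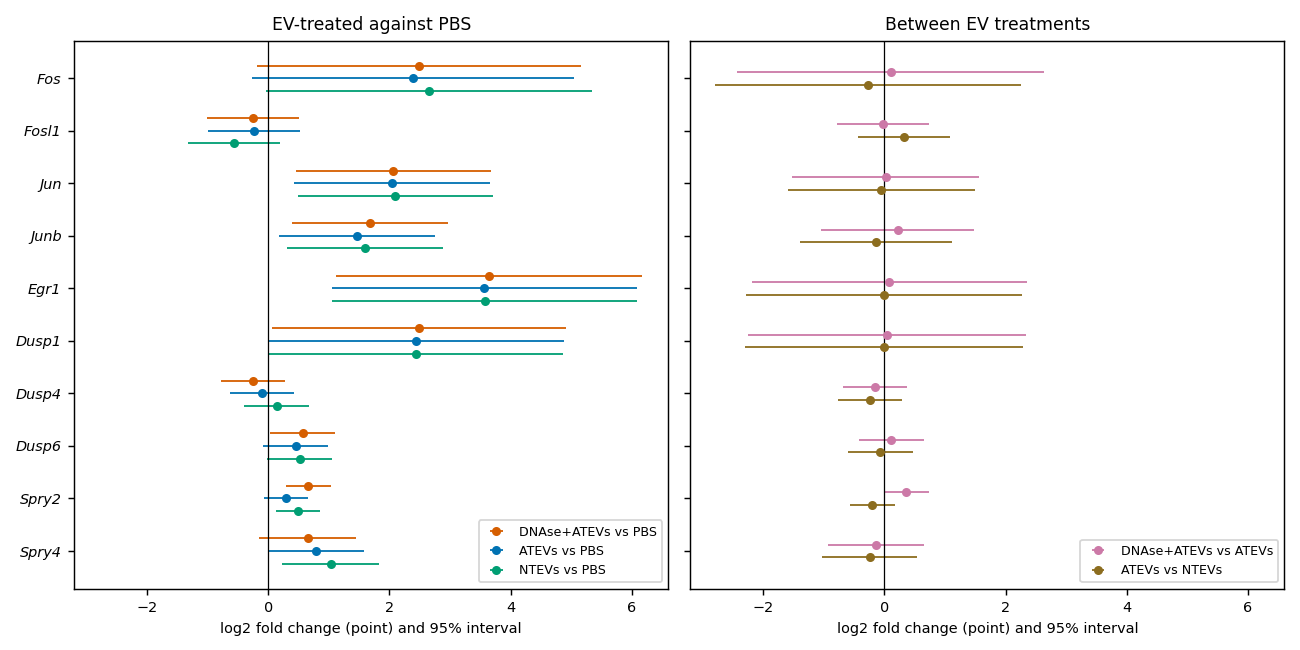
Log2 fold change (points) and 95% interval of the edgeR fit (bars) of the 10 genes, for each EV treatment against PBS on the left and between EV treatments on the right. On the left the points of Egr1 lie between 3.56 and 3.65 with intervals that start above 1; on the right all points lie between -0.27 and 0.36 and each interval includes 0.

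Read against all genes, the 10 genes leaned to one side but none was called. With DNAse+ATEVs, 0 of the 10 passed against PBS where 3.01% of all genes tested did; at an unadjusted p under 0.05, 6 were higher and 0 lower, where 13.7% of all genes were higher and 10.9% lower. For ATEVs, 0 passed where 5.19% of all genes did, and 4 had a higher and 0 a lower level at an unadjusted p under 0.05, beside 11.6% and 10.3% of all genes. For NTEVs, 0 passed where 1.11% of all genes did, and 6 had a higher and 0 a lower level at an unadjusted p under 0.05, beside 10.3% and 8.85% of all genes. Jun, Junb, Egr1 and Dusp1 were among those higher in each comparison. Both libraries lay above both PBS libraries for 8 of the 10 genes in each comparison, all but Fosl1 and Dusp4, where 29.7%, 25.2% and 28.6% of all genes tested did so. The 3 comparisons share the PBS libraries, so their counts are not independent. The 10 genes were chosen with earlier results of these data known, so their lean is described here and was not tested. The median log2 fold change of the 10 was 1.17, 1.12 and 1.31, beside 0.00, -0.02 and 0.00 over all genes tested.

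The counts of calls depended on the test and the filter. DESeq2 called Jun, Junb and Egr1 higher in all 3 comparisons against PBS and Spry2 with DNAse+ATEVs as well, 4, 3 and 3 genes, where it called 11.6%, 10.8% and 6.47% of all genes. With no filter on low counts edgeR called 5, 5 and 6 of the 10, Fos, Jun, Junb, Egr1 and Dusp1 in each comparison and Spry4 with NTEVs, where it called 6.03%, 5.77% and 3.07% of the 25199 genes with a count. Only the groups compared gave Junb with DNAse+ATEVs (edgeR adjusted p = 0.0434) and 0 calls in the 4 other comparisons, where 4.6%, 3.13% and 0.904% of genes passed against PBS, 0.354% for ATEVs against NTEVs and 0.322% for DNAse+ATEVs against ATEVs. With relative log expression (RLE) scaling 0 of the 10 passed in any comparison, where 2.77%, 5.19%, 1.13%, 1.18% and 0.684% of all genes did, in the order DNAse+ATEVs, ATEVs and NTEVs against PBS, ATEVs against NTEVs and DNAse+ATEVs against ATEVs. Leaving out any 1 library of a comparison gave 0 calls in it. Such a fit leaves 1 library in a group, so its counts at an unadjusted p are not given.

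Between the EV treatments no difference passed the test for any of the 10 genes, although the intervals were wide for the most variable. DNAse+ATEVs against ATEVs asks whether DNase pretreatment alters the effect of the vesicles. It gave 0 of 10 calls by edgeR and 0 by DESeq2, where these called 0.665% and 2.85% of all genes. At an unadjusted p under 0.05, 0 of the 10 were higher and 0 lower, where 6.38% of all genes were higher and 4.97% lower. With no filter 0 passed, where 1.36% of genes did. The log2 fold change was 0.10 for Fos (95% interval -2.42 to 2.63), 0.09 for Egr1 (-2.18 to 2.36), 0.02 for Jun (-1.52 to 1.56) and 0.11 for Dusp6 (-0.42 to 0.65). Only for Spry2 did both DNAse+ATEVs libraries lie above both ATEVs libraries, with a log2 fold change of 0.36 (-0.01 to 0.73, edgeR adjusted p = 0.451), and for Dusp4 both lay below; 19.4% of all genes tested lay above in this way and 16.8% below. ATEVs against NTEVs compares EVs from T cells with and without activation. They were given at 15 and 30 µg/mL, so donor activation and the amount of EVs cannot be told apart. This contrast gave 0 of 10 calls by edgeR and 0 by DESeq2, where these called 1.19% and 3.14% of all genes. At an unadjusted p under 0.05, 0 of the 10 were higher and 0 lower, where 4.4% of all genes were higher and 3.84% lower. With no filter 0 passed, where 1.82% of genes did. The log2 fold change was -0.27 for Fos (-2.80 to 2.26), -0.01 for Egr1 (-2.28 to 2.26), -0.05 for Jun (-1.60 to 1.49) and -0.06 for Dusp6 (-0.60 to 0.47). Dusp4 and Spry2 were lower in both ATEVs libraries than in both NTEVs libraries, as were 16.3% of all genes tested. These intervals do not show that the treatments act alike: for Fos, Egr1 and Dusp1 they span more than a 4-fold difference in either direction.

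The spread between libraries of a group was wide for 5 of the 10 genes. The biological coefficient of variation (BCV, the relative spread that edgeR estimates beyond counting error) was 0.701 for Fos, 0.645 for Dusp1, 0.636 for Egr1, 0.451 for Jun and 0.373 for Junb, above 99.2%, 98.7%, 98.6%, 93.6% and 88.0% of all genes tested, whose median was 0.200. It was 0.248 for Spry4, 0.241 for Fosl1, 0.182 for Dusp6, 0.180 for Dusp4 and 0.144 for Spry2, above 65.3%, 63.1%, 42.8%, 42.2% and 20.8% of all genes. Library 2 was higher than library 1 in all 4 groups for 7 of the 10 genes, where this held for 10.6% of all genes tested, and lower in all 4 groups for 0, where 8.82% were. The 7 were Fos, Jun, Junb, Egr1, Dusp1, Dusp4 and Dusp6. The labels do not say what the numbers 1 and 2 stand for, and the part of handling, culture or depth in this difference was not tested.

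**Figure D3:**
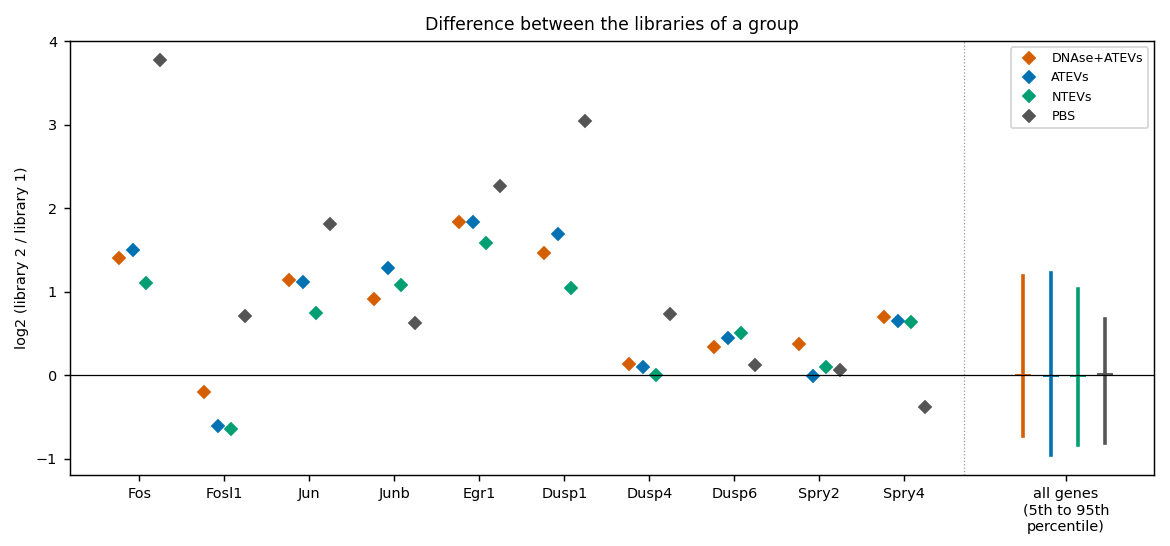
Log2 ratio of library 2 to library 1 in each group (diamonds) for the 10 genes, and at the right the 5th to 95th percentile over all genes tested (bars) with the median. Fos reaches 3.77 with PBS and Egr1 lies between 1.58 and 2.27 in all 4 groups, while the 95th percentile of all genes runs from 0.67 to 1.23.

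In size the gap was largest with PBS for Fos, Dusp1, Egr1, Jun, Dusp4 and Fosl1. The log2 ratio of library 2 to library 1 for Fos was 1.402 with DNAse+ATEVs, 1.502 with ATEVs and 1.102 with NTEVs, against 3.77 with PBS. For Dusp1 it was 1.46, 1.70 and 1.04 with the EVs in the same order, against 3.04 with PBS. For Junb the order was the other way, with 0.91, 1.28 and 1.08 against 0.63 with PBS. The ratio of EV-treated to PBS libraries of the same number differed by number for Fos, at 22.6, 20.01 and 29.3 among libraries numbered 1 and 4.37, 4.14 and 4.601 among libraries numbered 2. For Dusp6 these ratios were 1.37, 1.21 and 1.24 among libraries numbered 1 and 1.59, 1.51 and 1.61 among libraries numbered 2.

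Per kilobase of exon, the order of the genes differed between groups. With DNAse+ATEVs the highest was Junb at 291 CPM per kb, then Fos at 247, Dusp6 at 155, Egr1 at 135, Dusp1 at 60.2, Jun at 38.4, Fosl1 at 23.9, Dusp4 at 23.0, Spry2 at 22.2 and Spry4 at 13.5. With PBS the highest was Dusp6 at 105, then Junb at 90.7, Fos at 44.0, Fosl1 at 28.6, Dusp4 at 27.3, Spry2 at 14.1, Egr1 at 10.8, Dusp1 at 10.8, Jun at 9.22 and Spry4 at 8.62. Fos and Junb were thus within the top 1% of 15157 genes with a length in each EV group (0.937% from the top or better), and at 8.39% and 3.48% from the top with PBS. Dusp6 stayed within the top 2.85% in all groups. The libraries of neighbours in the order overlapped at every step with DNAse+ATEVs but that from Spry2 to Spry4, with ATEVs but that from Fosl1 to Spry2, with NTEVs but those from Junb to Dusp6 and Dusp4 to Spry2, and with PBS but that from Dusp4 to Spry2.

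The genes whose profile over the 8 libraries was most like that of a given gene were found by the root mean square difference of log2 CPM after centring each gene on its own mean, among 10600 candidates. For Fos they were Dusp1 (0.26), Egr1 (0.46) and Fosb (0.60), and for Egr1 they were Dusp1 (0.42), Fos (0.46) and Atf3 (0.67), so that of the 3 nearest genes to each, 2 were among the 10. For Dusp1 all 3 were, namely Fos (0.26), Egr1 (0.42) and Jun (0.48). For Jun they were Muc4 (0.24), a membrane mucin, Zfp36 (0.31), which encodes an mRNA decay factor, and Ccn1 (0.37), a matricellular protein gene. For Junb they were the immediate early gene Ier2 (0.10), Jund (0.21) and Csrnp1 (0.22). The nearest to the other members were Ccdc134 for Fosl1 (0.09), Traf4 for Dusp4 (0.09), Mapre3 for Dusp6 (0.06), Taok2 for Spry2 (0.07) and Ngef for Spry4 (0.09), where the SD of log2 CPM over the libraries of the member itself was 0.37, 0.25, 0.31, 0.28 and 0.51.

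Other genes of the pathway, taken from lists by role, gave few calls against PBS by edgeR. These calls stand beside 3.01%, 5.19% and 1.11% of all genes tested with DNAse+ATEVs, ATEVs and NTEVs. Their counts at an unadjusted p under 0.05 stand beside the shares of all genes given above, 13.7%, 11.6% and 10.3% higher and 10.9%, 10.3% and 8.85% lower in the same order. Of 13 tested AP-1 and related genes outside the 10, 1 rose and 0 fell with DNAse+ATEVs, 1 rose and 0 fell with ATEVs, and 0 passed with NTEVs, with 6, 4 and 4 higher and 1, 1 and 0 lower (Atf2) at an unadjusted p under 0.05. The 1 with DNAse+ATEVs was Mafg, a small MAF partner of AP-1 factors, at 104 and 118 CPM against 69.4 and 69.9 CPM with PBS (log2 0.67 ± 0.12, edgeR adjusted p = 0.0363). The 1 with ATEVs was Batf2, a BATF-family factor induced by interferon gamma, at 38.0 and 13.7 CPM against 1.28 and 1.79 CPM with PBS (log2 4.08 ± 0.56, edgeR adjusted p = 0.00946). Batf2 was at 1.77 and 0.946 CPM with DNAse+ATEVs and 1.64 and 1.42 CPM with NTEVs, and differed between DNAse+ATEVs and ATEVs (log2 -4.25 ± 0.56, edgeR adjusted p = 0.0260) and between ATEVs and NTEVs (log2 4.07 ± 0.56, edgeR adjusted p = 0.0196). It was the only 1 of the 130 tested pathway genes outside the 10 that edgeR called in either comparison between EV treatments. Each Batf2 call was lost when either library of the group with the low level was left out, with edgeR adjusted p up to 0.203 between DNAse+ATEVs and ATEVs, 0.157 between ATEVs and NTEVs and 0.115 against PBS. With 1 library left out, the log2 fold change of Batf2 ran from -4.81 to -3.36, from 3.18 to 4.63 and from 3.204 to 4.64 in that order, smallest in size without ATEVs library 1 and largest without ATEVs library 2.

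Of 38 other immediate early genes tested, 1 rose with ATEVs and none fell, and with DNAse+ATEVs and NTEVs 0 passed edgeR. At an unadjusted p under 0.05, 14 were higher and 0 lower with DNAse+ATEVs, 9 higher and 1 lower with ATEVs, and 12 higher and 0 lower with NTEVs, and their median log2 fold change was 0.84, 0.54 and 0.66. The 1 was Ier5l, a relative of the immediate early gene Ier5, at 5.04 and 5.13 CPM with ATEVs against 2.12 and 1.67 CPM with PBS (log2 1.42 ± 0.26, edgeR adjusted p = 0.0280). Ier2, the nearest in profile to Junb, was at 209 and 421 CPM with DNAse+ATEVs, 161 and 374 CPM with ATEVs and 204 and 432 CPM with NTEVs, against 65.1 and 115 CPM with PBS, with edgeR adjusted p of 0.121, 0.166 and 0.170. Fosb, a relative of Fos, was at 322 and 229 CPM with DNAse+ATEVs, 291 and 521 CPM with ATEVs and 372 and 520.1 CPM with NTEVs, against 8.43 and 91.4 CPM with PBS, with edgeR adjusted p of 0.163, 0.121 and 0.159. Library 2 was higher than library 1 in all 4 groups for 23 of the 38, among them Ier2, and for 5 of the 13 AP-1 genes, among them Atf3 and Jund. This held for 10.6% of all genes tested. Fosb was lower in library 2 with DNAse+ATEVs.

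The other ERK-linked lists had medians nearer 0. Of 25 other ERK feedback and output genes, 0 passed edgeR with DNAse+ATEVs and NTEVs and 1 fell with ATEVs. At an unadjusted p under 0.05, 4 were higher and 4 lower with DNAse+ATEVs, 3 higher and 4 lower with ATEVs, and 4 higher and 2 lower with NTEVs. The gene that fell was Emp1, an epithelial membrane protein gene, at 996 and 1062 CPM with ATEVs against 1721 and 2106 CPM with PBS (log2 -0.89 ± 0.18, edgeR adjusted p = 0.0371). The median log2 fold change of this list was 0.00 with DNAse+ATEVs, 0.21 with ATEVs and -0.01 with NTEVs. A list of 31 genes held the cascade from Ras to ERK and its partners, with the other MAP kinase genes Mapk7, Mapk8, Mapk9 and Mapk14. Of the 31, 0 passed edgeR in any of the 3 comparisons. The unadjusted p was under 0.05 for 2 higher and 6 lower, 3 higher and 2 lower, and 3 higher and 4 lower genes, with medians of -0.08, -0.09 and -0.01. Of 23 growth factor receptors and ligands 0 passed, and the unadjusted p was under 0.05 for 2 higher and 2 lower, 3 higher and 3 lower, and 5 higher and 2 lower genes, with medians of 0.10, 0.14 and 0.46. Taken as 1 set of 130 genes, these 5 lists had 1, 3 and 0 calls by edgeR, where 3.01%, 5.19% and 1.11% of all genes tested were called. By DESeq2 the set had 25, 20 and 12 calls, where 11.6%, 10.8% and 6.47% of all genes were called. Mafg, Ier5l and Emp1 no longer passed when any 1 library of their comparison was left out, with edgeR adjusted p up to 0.238, 0.195 and 0.229, while their log2 fold changes ran from 0.59 to 0.797, 1.26 to 1.597 and -1.04 to -0.74.

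**Figure D4:**
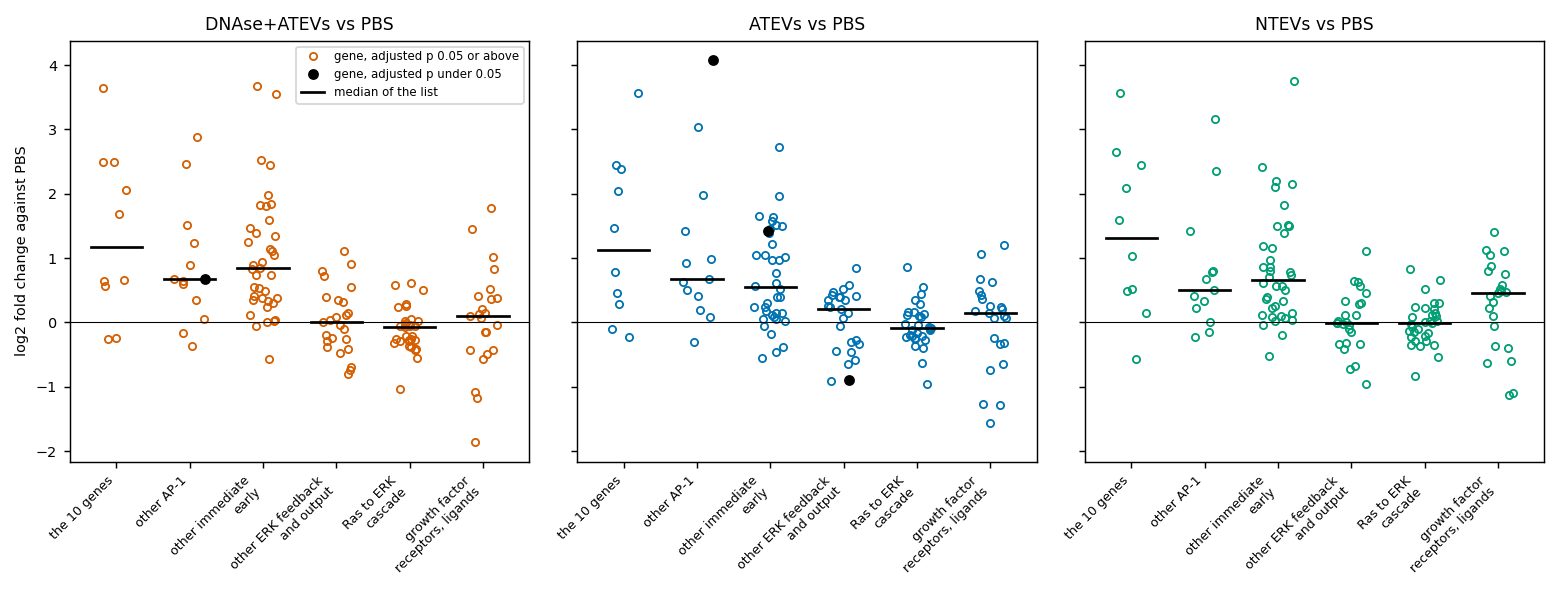
Log2 fold change against PBS of each tested gene (points), by list, for DNAse+ATEVs, ATEVs and NTEVs; filled points passed edgeR's adjusted p of 0.05 and lines are list medians. The medians of the 10 genes lie between 1.12 and 1.31 and those of other immediate early genes between 0.54 and 0.84, while the ERK feedback and cascade lists lie between -0.09 and 0.21. Those of other AP-1 genes lie between 0.50 and 0.67, and those of growth factor receptors and ligands between 0.10 and 0.46.

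Heat shock genes, taken as a list, did not lean the same way, but Hspa1a and Hspa1b were above both PBS libraries with each EV. Of 11, Hspa1a and Hspa1b rose with DNAse+ATEVs, Hspa1a rose with ATEVs, and with NTEVs 0 passed edgeR. The unadjusted p was under 0.05 for 2 higher and 5 lower genes with DNAse+ATEVs, 2 and 2 with ATEVs and 2 and 2 with NTEVs, beside the same shares of all genes as above. Both libraries lay below both PBS libraries for 7, 6 and 6 of the 11 (63.6%, 54.5% and 54.5%), where this held for 30.9%, 27.3% and 30.9% of all genes tested. They lay above both PBS libraries for 2, 3 and 2 of the 11, where 29.7%, 25.2% and 28.6% of all genes did. Hspa1a was at 4.84 and 5.999 CPM with DNAse+ATEVs, 5.45 and 5.16 CPM with ATEVs and 4.91 and 4.18 CPM with NTEVs, against 2.25 and 2.58 CPM with PBS (edgeR adjusted p = 0.0498, 0.0401 and 0.123). Hspa1b, an inducible HSP70, was at 78.5 and 79.8 CPM with DNAse+ATEVs, 70.2 and 67.9 CPM with ATEVs and 64.9 and 54.98 CPM with NTEVs, against 29.7 and 44.7 CPM with PBS (edgeR adjusted p = 0.0436, 0.0531 and 0.154). The genes are near-identical copies, and how their reads were divided is uncertain. None of these calls held when any 1 library of the comparison was left out, with edgeR adjusted p up to 0.241, while the log2 fold change of Hspa1a ran from 1.01 to 1.35 with DNAse+ATEVs and 1.03 to 1.23 with ATEVs, and that of Hspa1b with DNAse+ATEVs from 0.81 without PBS library 1 to 1.404 without PBS library 2. The list's median log2 fold change was -0.35, -0.40 and -0.35, and its summed level was 3819 and 3555 CPM with DNAse+ATEVs, 4395 and 3368 CPM with ATEVs and 4058 and 3462 CPM with NTEVs, against 4922 and 5586 CPM with PBS. Library 2 was higher than library 1 in all 4 groups for 1 of the 11, Dnajb1, where this held for 10.6% of all genes tested. Dnajb1 was chosen after its values were seen.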

How the data were processed

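RNA was sequenced from 8 libraries of cultured cells; per the labels' protocols, libraries were stranded mRNA libraries. The submitters' processing notes list mm9, Cufflinks 2.1.1, TopHat, TopHat2 2.0.11 and bcl2fastq 2.19 without saying what each did. The counter, strand setting and annotation: not given in the sources used here. Values of overlapping or antisense genes are therefore uncertain. The deposited values are whole-number counts per Ensembl gene. Symbols came from a table of gene names (42250 matched by identifier) and exon lengths from GENCODE M21.

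Counts were filtered with edgeR's expression filter by group (15197 genes kept), TMM-scaled and fitted in R 4.3.3 with edgeR 4.0.16, as a quasi-likelihood model with 4 group means over all 8 libraries and 4 residual degrees of freedom. P-values are two-sided and adjusted by Benjamini-Hochberg over all genes tested, with a threshold of 0.05. The SE was taken from the fold change and its F statistic, and intervals are 95%. Profiles and library ratios used log2 CPM with a prior count of 2. With 2 libraries against 2, no exact permutation p for 1 gene can be under 0.333. DESeq2 1.42.0, RLE scaling, no filter, fits of the compared groups alone, a replicate block and leaving out each library were tried as alternatives. The fit was tested on simulated data. Libraries of a group differed beyond sampling noise (median chi-square per gene 5.81 to 15.7 on 1 degree of freedom). The 10 genes and the lists were chosen with earlier results of these data known. The genes named are the 10, up to 3 called genes per list and comparison with the smallest p, and the 3 genes most alike in profile to each of the 10; Fosb and Ier2 come from the last rule. An allele of the cell line and the values of its gene are not reported here.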

Additional observations from a re-analysis of the deposited data

How the results depend on the processing

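The direction of the 10 genes against PBS held in all alternatives run for each gene except for Fosl1 and Dusp4, which turned when 1 library was left out, while the number of calls depended on the method; the cause was not tested. In the order DNAse+ATEVs, ATEVs and NTEVs against PBS, the calls among the 10 were 0, 0 and 0 in the reported fit, 4, 3 and 3 with DESeq2, 5, 5 and 6 with no filter on low counts and 1, 0 and 0 with only the groups compared; RLE scaling gave 0 in each. Among the 130 other pathway genes the calls were 1, 3 and 0 in the reported fit, where 3.01%, 5.19% and 1.11% of all genes were called. They were 25, 20 and 12 with DESeq2 (11.6%, 10.8% and 6.47% of all genes) and 30, 23 and 21 with no filter (6.03%, 5.77% and 3.07%). Only the groups compared gave 9, 1 and 0 (4.6%, 3.13% and 0.904%). For DNAse+ATEVs against ATEVs and ATEVs against NTEVs the calls among these genes were 1 and 1 in the reported fit (0.665% and 1.19% of all genes). They were 3 and 1 with DESeq2 (2.85% and 3.14%) and 3 and 1 with no filter (1.36% and 1.82%). With only the groups compared they were 0 and 0 (0.322% and 0.354%).

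The labels give the same numbers 1 and 2 in each group but do not say that they pair the libraries. Deviations of same-numbered libraries from their group means correlated across genes at 0.485 to 0.552 between EV groups and at -0.236 to -0.141 between EV groups and PBS. With the replicate block 6.92%, 7.78% and 2.17% of all genes were called against PBS, in the same order. Beside these shares, the calls were 6, 5 and 4 among the 10 and 29, 20 and 13 among the other pathway genes. Between EV groups the block gave 0 calls among the 10. With PBS numbers crossed in the block, chosen after seeing the data, the calls among the 10 were 5, 1 and 5. The share of all genes called in that fit is not given here, so these counts cannot be set against it.

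Log2 fold changes that changed sign were small or had wide errors. Egr1 for ATEVs against NTEVs was 0.0115 with RLE scaling, 0.0114 with DESeq2 and 0.0225 with no filter. Dusp1 for the same contrast was -0.19 and Batf2 for NTEVs against PBS -0.033 with the replicate block, and Jun for DNAse+ATEVs against ATEVs was -0.0105 with no filter. Leaving out each library gave, for DNAse+ATEVs against PBS, -0.58 to 0.13 for Fosl1, -0.58 to 0.16 for Dusp4 and -0.65 to 0.22 for Batf2. For ATEVs against PBS it gave -0.55 to 0.16 for Fosl1 and -0.43 to 0.32 for Dusp4, and for NTEVs against PBS -0.19 to 0.55 for Dusp4 and -0.23 to 0.25 for Batf2. For DNAse+ATEVs against ATEVs it gave -0.79 to 1.03 for Fos, -0.31 to 0.29 for Fosl1, -0.68 to 0.67 for Jun, -0.34 to 0.99 for Junb, -1.14 to 1.26 for Egr1, -0.90 to 1.12 for Dusp1, -0.11 to 0.35 for Dusp6, -0.55 to 0.22 for Spry4 and -0.15 to 0.18 for Hspa1a. For ATEVs against NTEVs it gave -1.20 to 0.39 for Fos, -0.71 to 0.41 for Jun, -0.91 to 0.51 for Junb, -1.19 to 0.99 for Egr1, -1.08 to 0.63 for Dusp1, -0.30 to 0.21 for Dusp6, -0.60 to 0.11 for Spry4 and -0.35 to 0.0458 for Emp1. Each of the 10 had at least 396 counts in every library. The part of depth and of the number of libraries in these spreads was not tested.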
